A study of Mus musculus with 6 samples.

Results

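The clustered protocadherins are cadherin-like cell surface proteins encoded by the tandem alpha, beta and gamma gene clusters. They were taken as every row of the deposited table whose symbol reads Pcdha, Pcdhb, Pcdhga, Pcdhgb, Pcdhac or Pcdhgc followed by a number. This gave 58 of 23284 rows, of which 14 belong to the alpha cluster, 22 to the beta cluster and 22 to the gamma cluster. RNA was sequenced from prefrontal cortex of wild-type mice of the inbred strain C57BL/6 (one label field gives the substrain as C57BL/6J), aged 8 to 10 weeks. The mice had lived either singly or in groups for 6 days, and there were 3 libraries of single-housed and 3 of group-housed animals. The comparison of the housing conditions stands under a series title on interferon-gamma, neuronal connectivity and social behaviour. Whether the libraries stem from separate animals is not stated, so the p-values below reflect library-to-library spread, some of which may be technical.

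As background, each alpha and gamma isoform begins with its own large variable exon, which carries its own promoter and encodes the extracellular part, the membrane span and a piece of the cytoplasmic tail. That exon is spliced to 3 constant exons, which every isoform of the cluster shares. Beta isoforms consist of a single variable exon and have no constant part. Most isoforms, called alternate isoforms, are chosen by promoter in a largely random way in each neuron, whereas the C-type isoforms at the end of the alpha and gamma clusters are less random. The proteins bind copies of themselves on other membranes, and the combination on a cell marks it for self-recognition of dendrites and axons. CTCF and cohesin loop the chosen promoters to distant enhancers, and DNA methylation silences the others.

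The shared exons decided what the deposited counts could measure. In the deposited mm9 exon coordinates the alpha cluster spans chromosome 18 from 37089939 to 37347314, the beta cluster from 37424652 to 37681073 and the gamma cluster from 37821599 to 38001526. Each alpha row shared a median of 2860 exon bases with other rows and each gamma row a median of 2117, while each beta row shared 0. Over the whole table, all 345 rows without an exon base of their own had 0 counts in all 6 libraries. This included 27 rows that were alone on their own strand. A further 3841 rows with own bases also had 0 counts, and the counting settings are not given. From the 345 rows, bases covered by a row of either strand were taken to be shared, which was not tested further. Reads on the constant exons were therefore taken to be absent from the alpha and gamma rows, and an isoform's count reflects its variable exon. Levels between isoforms are given as CPM (counts scaled to library size by TMM) per kb of own exon bases, meaning exon bases that no other row covers. These own bases came to 2346 to 2562 in the alpha cluster other than Pcdha4, 2319 to 5270 in the beta cluster and 2364 to 2961 in the gamma cluster.

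Pcdha4 was the member most affected by this counting. The table also holds a row named Pcdha4-g, which joins most of the Pcdha4 variable exon to gamma constant exons. That row left Pcdha4 with 52 own bases and had none itself. Pcdha4 accordingly had 1, 0 and 0 counts in single-housed and 1, 0 and 0 counts in group-housed replicates 1, 2 and 3, and Pcdha4-g had 0 in all 6. These counts say nothing about the transcript level of Pcdha4, and no level is given for it. Pcdhb1, with 2457 own bases and no overlap, had 1, 0 and 0 counts in single-housed replicates 1, 2 and 3 and 0 counts in every group-housed library. A count of 3 would be 0.0897 to 0.116 CPM of the library total, so a Pcdhb1 transcript under that level could not be detected here. That limit takes in counting error alone. The low-count filter therefore kept 56 of the 58 members.

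Sequence likeness between variable exons also differed by subfamily. In the GENCODE M21 transcripts of GRCm38, where 57 members were found, the C-type exons shared 0% of their 50-base stretches with another member. Alternate alpha exons shared a median of 14.6% and gamma B exons 11.6%, against 4.26% for beta exons and 0.295% for gamma A exons. The highest share was 23.4%, for Pcdha7, mostly with Pcdha8, and Pcdhgb1 and Pcdhgb2 shared 16.8% and 17.9%. With 100-base stretches the highest share fell to 11.1%. Reads wholly within such stretches cannot be placed on 1 isoform by sequence alone. The counts of alternate alpha and gamma B isoforms may thus be less certain than those of C-type and gamma A isoforms. How much so depends on the read length, which is not given here, and was not tested.

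Total counts were 32902303 to 33428512 in single-housed and 25858355 to 32088512 in group-housed libraries, and cortical excitatory markers such as Slc17a7 and Tbr1 were detected in each library, at 1908 to 2169 CPM and 174 to 193 CPM. Group-housed replicate 1, the shallowest library, stood apart in the protocadherins and is described separately. Over all libraries, the striatal projection neuron markers (17 of 18 in the table, 0 of them at 0 in all libraries) summed to 2908, 1448 and 582 CPM in single-housed and 1402, 609 and 691 CPM in group-housed replicates 1, 2 and 3. The oligodendrocyte markers (8 of 8) summed to 4268, 4063 and 2020 CPM in single-housed and 5461, 1994 and 3147 CPM in group-housed replicates 1, 2 and 3. In such bulk tissue, fewer cells of a type and less RNA per cell cannot be told apart.

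The highest members were 3 of the 5 C-type isoforms. Pcdhgc5, a C-type gamma isoform that can bind a GABA-A receptor subunit, was the highest of all members, at 55.7, 51.8 and 56.9 CPM per kb in single-housed and 36.5, 62.2 and 54.5 CPM per kb in group-housed replicates 1, 2 and 3. Pcdhgc3, which in mouse promotes dendrite branching through Axin1, was second at 21.1, 21.0 and 21.1 CPM per kb under single housing, against 19.9, 18.6 and 20.0 under group housing. Pcdhac2, which mouse serotonergic neurons need for the even spacing of their axons, came next at 14.6, 14.6 and 15.1 CPM per kb under single housing, against 9.62, 18.3 and 14.2 under group housing. The 6-library ranges of these 3 isoforms did not overlap each other or that of the highest alternate isoform, so their order held in every library. Together Pcdhgc5, Pcdhgc3 and Pcdhac2 made up 38.2% ± 1.11 (SD, n = 6 libraries) of all clustered protocadherin counts. Markers of serotonergic neurons (3 of 3 in the table) summed to 0.720 to 1.04 CPM in single-housed and 0.786 to 1.24 CPM in group-housed libraries.

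The other C types were not set apart from the alternate isoforms. Pcdhgc4, which mouse cortical interneurons need to survive development, was at 4.14 CPM per kb ± 0.505 (SD, n = 6 libraries), between Pcdhga4 and Pcdhga5, with ranges that overlapped both. Pcdhac1 was at 1.49 CPM per kb ± 0.330, within the range of alternate alpha isoforms. Per kb, Pcdhgc5 lay 11.1 to 14.6 times above Pcdhgc4 over the 6 libraries, and Pcdhac2 lay 8.07 to 11.0 times above Pcdhac1. High levels in this tissue were thus a feature of 3 of the 5 C types.

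**Figure D1:**
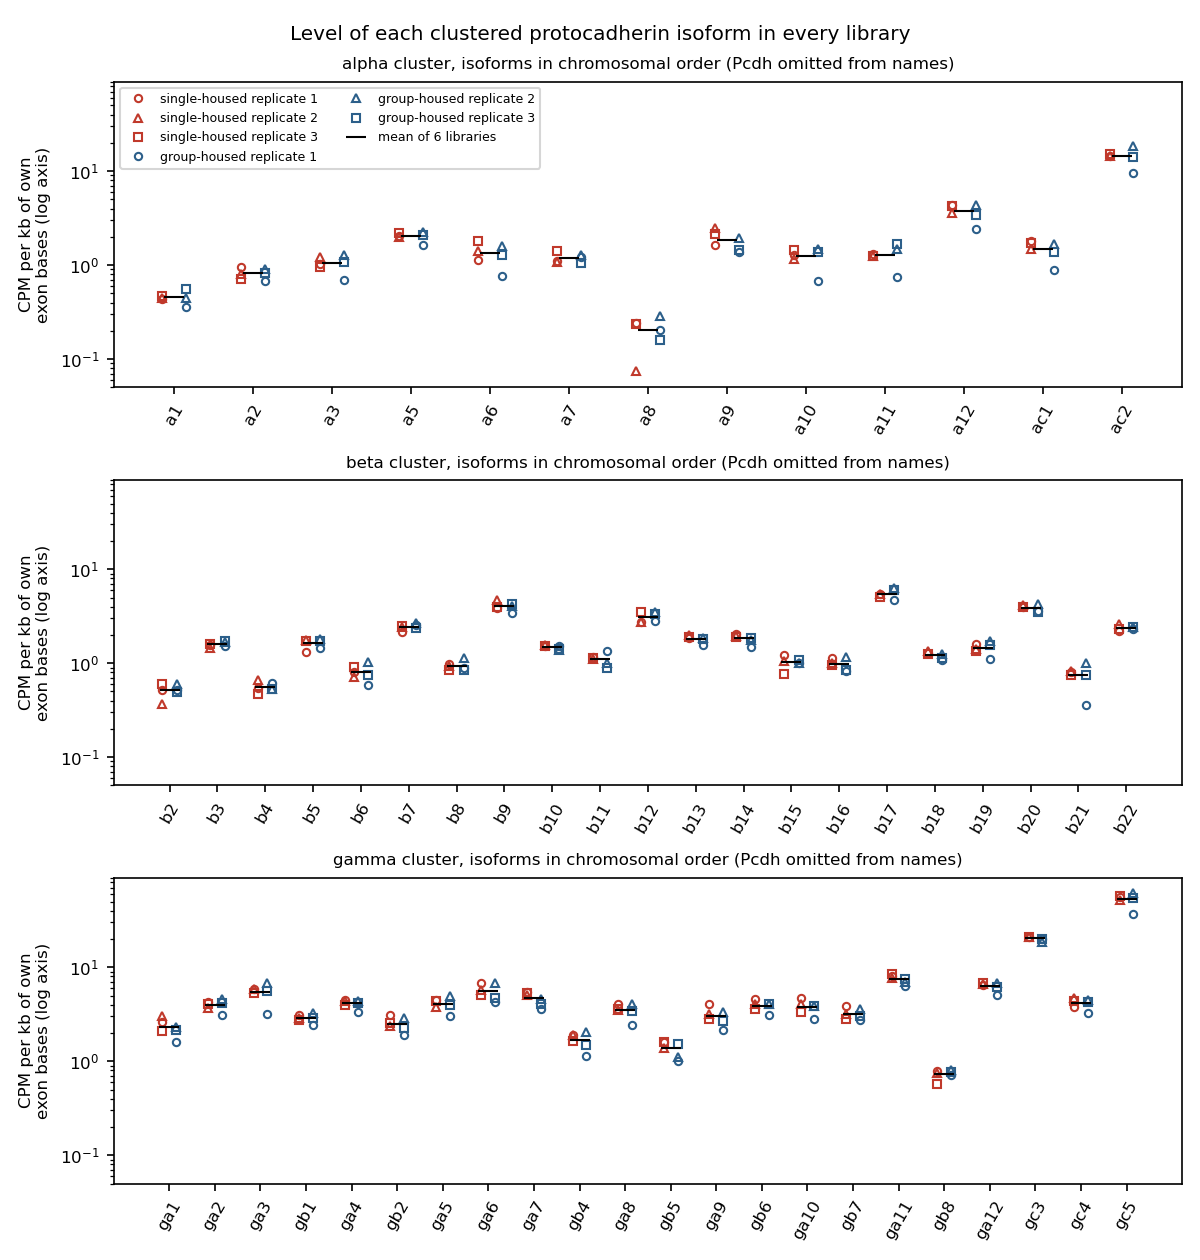
Level of each tested clustered protocadherin isoform, in CPM per kb of own exon bases on a log axis, with isoforms of a cluster in chromosomal order, single-housed libraries left of group-housed libraries, and a black bar for the mean of the 6 libraries. Pcdhgc5, Pcdhgc3 and Pcdhac2 lie above all other isoforms in every library, and the lowest tested isoform is Pcdha8.

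Among the alternate isoforms the gamma cluster was highest. The median over isoforms ran in the order gamma A, gamma B, beta and alternate alpha in each of the 6 libraries, below the C-type median. Gamma A isoforms had a median of 3.13 to 4.60 CPM per kb over the libraries and gamma B isoforms 1.90 to 3.11. Beta isoforms, with Pcdhb1 included, had a median of 1.40 to 1.52 and alternate alpha isoforms, without Pcdha4, 0.754 to 1.47. The alpha and beta medians were thus close in some libraries, with 1.40 and 1.43 CPM per kb in single-housed replicate 3. The lowest median of every subfamily came from group-housed replicate 1, and the beta median spanned the narrowest range.

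By summed counts, the gamma cluster took 66.2%, 64.2% and 64.7% of the family's counts in single-housed and 63.0%, 64.0% and 64.4% in group-housed replicates 1, 2 and 3. The beta cluster took 21.2%, 22.8% and 21.6% in single-housed against 25.7%, 21.9% and 22.7% in group-housed libraries. The alpha cluster took 12.7%, 13.0% and 13.6% in single-housed against 11.4%, 14.2% and 12.9% in group-housed libraries. Reads of the constant exons are missing from the alpha and gamma sums, so these shares compare variable exons of the alpha and gamma clusters with whole beta transcripts. The beta share was highest, and the alpha and gamma shares lowest, in group-housed replicate 1.

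Within the alpha cluster the alternate isoforms spread widely. Pcdha12, the alternate isoform nearest to the C types, was the highest at 4.39, 3.61 and 4.22 CPM per kb in single-housed and 2.45, 4.32 and 3.44 CPM per kb in group-housed replicates 1, 2 and 3. Pcdha10 was the median isoform at 1.24 CPM per kb ± 0.297 (SD, n = 6 libraries). Pcdha8 was the lowest tested, with 19, 6 and 19 counts in single-housed and 13, 21 and 12 counts in group-housed libraries. Its variable exon shares 17.4% of its 50-base stretches with other members, chiefly Pcdha7, and how reads from such stretches were counted was not tested. Pcdhac2 alone took 47.8% ± 1.59 of the alpha counts and Pcdha12 took 11.6% ± 0.937. Over the 11 alternate alpha isoforms the level was higher closer to the constant exons, with a Spearman rho of −0.53 between distance (134 to 223 kb) and level. The isoforms share the same libraries, and the correlation is a description across isoforms.

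Within the beta cluster Pcdhb17 was the highest, at 5.44, 5.45 and 5.06 CPM per kb in single-housed and 4.65, 6.28 and 6.01 CPM per kb in group-housed replicates 1, 2 and 3. It was followed by Pcdhb9 at 4.03 and Pcdhb20 at 3.92 CPM per kb, both named after their values were seen. Pcdhb10 was the median isoform at 1.48 CPM per kb ± 0.0721 and Pcdhb2 the lowest tested at 0.516 ± 0.0875 (SD, n = 6 libraries). Pcdhb17 lay 8.37 to 14.9 times above Pcdhb2, a spread found in every library. Pcdhb1, the first gene of the cluster, was under the detection limit of 3 counts in all libraries.

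Within the gamma cluster, Pcdhga11 was the highest gamma A isoform. It was at 8.13, 7.71 and 8.43 CPM per kb in single-housed and 6.33, 6.96 and 7.57 CPM per kb in group-housed replicates 1, 2 and 3. It lay 2.54 to 4.05 times above Pcdhga1, the lowest gamma A isoform. Pcdhga5 was the median gamma A isoform at 4.12 CPM per kb ± 0.659 (SD, n = 6 libraries). Of the B isoforms, Pcdhgb6 was the highest at 3.92 ± 0.512, Pcdhgb2 the median at 2.51 ± 0.448 and Pcdhgb8 the lowest at 0.733 ± 0.0817 CPM per kb, and Pcdhgb6 lay 4.28 to 6.31 times above Pcdhgb8. RefSeq lists Pcdhgb8 of GRCm38 as a transcribed pseudogene, and it had 48 to 64 counts per library. Over the 19 alternate gamma isoforms the Spearman rho between distance to the constant exons (56.5 to 161 kb) and level was −0.04. It was −0.36 over the 12 gamma A and 0.14 over the 7 gamma B isoforms, again as descriptions across isoforms.

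In the full order of 57 isoforms by mean level, 51 of the 56 neighbouring pairs had overlapping ranges over the 6 libraries. The 5 separated neighbours were at the ends. At the top they were Pcdhgc5 over Pcdhgc3, Pcdhgc3 over Pcdhac2 and Pcdhac2 over Pcdhga11. At the bottom they were Pcdha1 over Pcdha8 and Pcdha8 over Pcdhb1. Between these the levels formed a continuum from 7.52 CPM per kb for Pcdhga11 to 0.454 for Pcdha1.

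No isoform passed the test between the housing conditions. Of the 56 tested members, 0 were higher and 0 were lower in single-housed libraries (edgeR's quasi-likelihood test, Benjamini-Hochberg adjusted over 15258 genes, adjusted p = 0.9999 for every member), where 0.0% of all genes tested were called in either direction. At an unadjusted p under 0.05, 1 member was higher and 0 were lower, against 0.832% and 0.727% of all genes tested. That count was 7 higher and 0 lower without group-housed replicate 2, 3 and 0 without group-housed replicate 3, and 4 and 0 with the striatal markers as a covariate, and none of these members passed the adjusted threshold. DESeq2 also called 0 members, and 8 of the 19098 genes with any count, with 1 member at an unadjusted p under 0.05. Limma-voom called 0 members and 0 of 15258 genes, with 2 members at an unadjusted p under 0.05. The share of all genes under that unadjusted threshold is not given for any alternative run. The member counts of those runs thus have no background beside them. The standard error of a member's log2 difference was 0.0665 to 0.441, with a median of 0.169, so modest differences were not detectable for most isoforms.

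By direction, 42 of the 56 members had a fitted log2 difference (single-housed minus group-housed) above 0, and 14 below 0, against 50.7% and 49.3% of all genes tested, with a median of 0.09, against 0.0015 over all genes tested. The gamma cluster had 21 of 22 above 0 with a median of 0.14, the alpha cluster 10 of 13 with a median of 0.07 and the beta cluster 11 of 21 with a median of 0.0047. These leanings depended on single group-housed libraries. Without group-housed replicate 2, 47 members were above 0 and 9 below, with a median of 0.20, against 0.0016 over all genes tested. With the striatal covariate the counts were also 47 and 9, with a median of 0.13, against 0.0025. The share of all genes above 0 is not given for the alternative runs. Without group-housed replicate 1, 27 members were above 0 and 29 below. The medians were then 0.02 in the gamma, −0.06 in the alpha and −0.04 in the beta cluster, against 0.0027 over all genes tested. Without that library, Pcdhgc5 had a log2 difference of −0.09 (SE 0.0856) and Pcdhac2 one of −0.14 (SE 0.113), in place of 0.10 (SE 0.167) and 0.07 (SE 0.192) with all libraries.

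**Figure D2:**
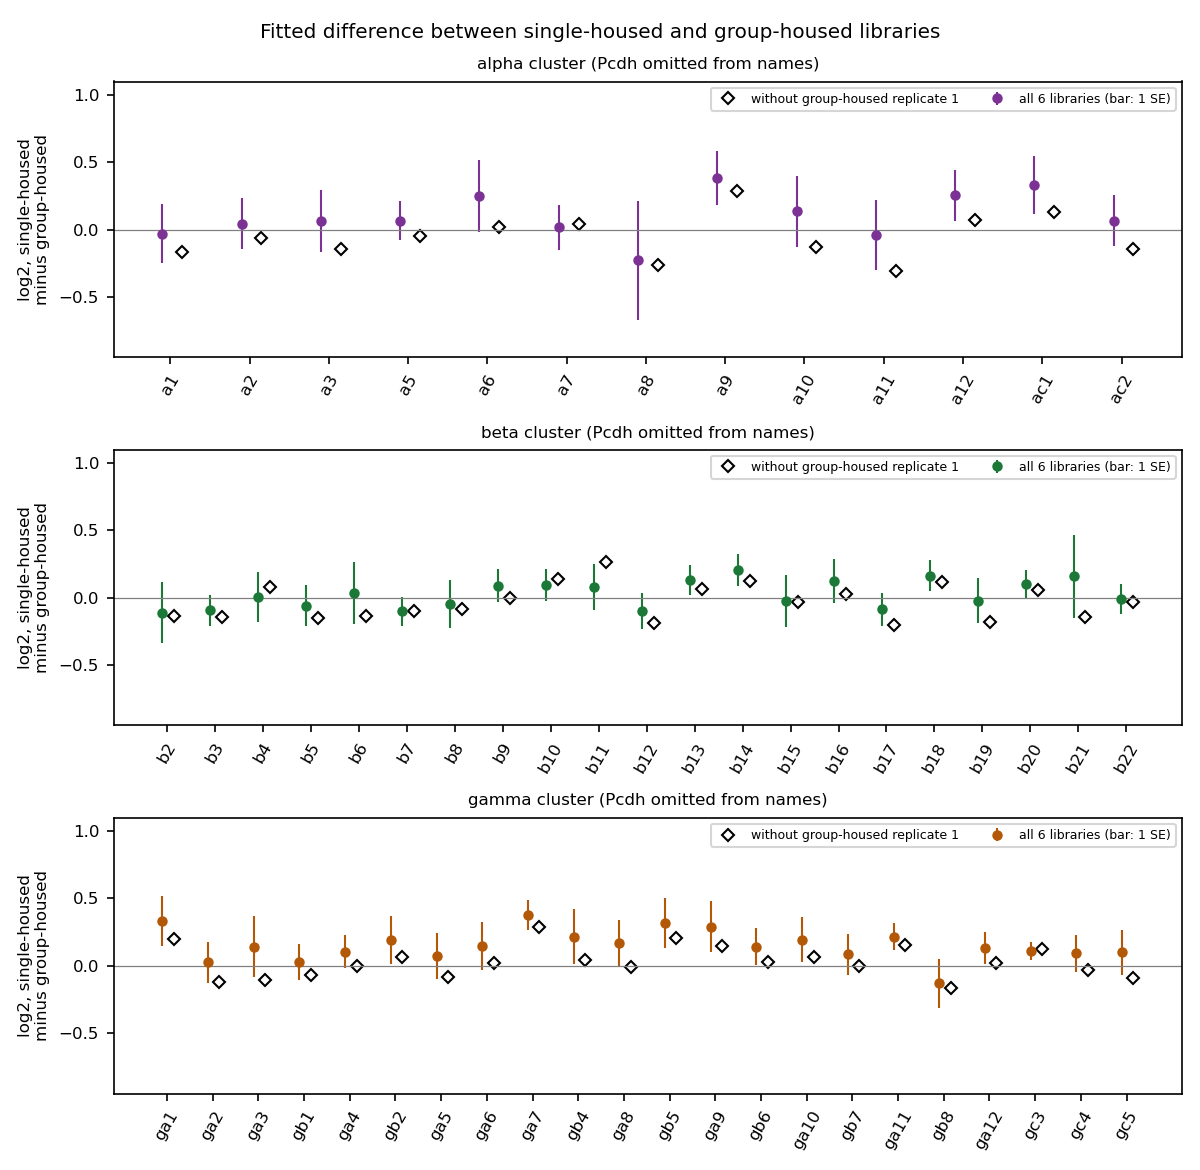
Fitted log2 difference, single-housed minus group-housed, for each tested isoform of the alpha, beta and gamma clusters with all 6 libraries (filled points, bars of 1 SE) and without group-housed replicate 1 (open diamonds). With all libraries 21 of 22 gamma isoforms lie above 0, and without that library 14 do.

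The member with the smallest p was Pcdhga7, an alternate gamma A isoform. It reached 13.9, 13.0 and 13.6 CPM under single housing and 9.13, 11.8 and 10.4 CPM in group-housed replicates 1, 2 and 3. The groups did not overlap, and the log2 difference was 0.37 (SE 0.112; edgeR unadjusted p = 0.00911, adjusted p = 0.9999). It was 0.29 (SE 0.105) without group-housed replicate 1. Pcdhga7 also had the smallest p of the members under each alternative run except leaving out group-housed replicate 3 (Pcdhgb5) or single-housed replicate 1 (Pcdha9), and it was called under none.

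The groups did not overlap for 5 members, all higher in single-housed libraries, where 2.46% of all genes tested did so in that direction and 2.4% in the other. Besides Pcdhga7 these were Pcdhga11, Pcdhgc3, Pcdhb13 and Pcdhb14. Pcdhga11 had values of 21.1, 20.0 and 21.9 CPM in single-housed and 16.4, 18.1 and 19.7 CPM in group-housed replicates 1, 2 and 3 (log2 difference 0.22, SE 0.0971; edgeR adjusted p = 0.9999). Its lowest single-housed and highest group-housed library nearly touched. Pcdhgc3 was at 54.1, 53.9 and 54.1 CPM under single housing against 51.1, 47.7 and 51.4 CPM under group housing (0.11, SE 0.0665), a narrow gap between tight groups. Pcdhb14 and Pcdhb13 differed by 0.21 (SE 0.122) and 0.13 (SE 0.113). As these 5 were picked for lying higher in every single-housed library, their lowest library is group-housed by definition. For 4 of them it was group-housed replicate 1.

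For the other members named by p or by level, the groups overlapped. Pcdha9 averaged 5.17 ± 1.05 CPM under single housing and 3.96 ± 0.804 CPM under group housing (SD, n = 3 each), a log2 difference of 0.38 (SE 0.199). Pcdhac1 averaged 4.05 ± 0.417 CPM under single housing and 3.20 ± 0.950 CPM under group housing (0.33, SE 0.217; 0.13 without group-housed replicate 1). Pcdhb18 averaged 6.53 ± 0.275 CPM under single housing and 5.83 ± 0.439 CPM under group housing (0.16, SE 0.114). Pcdhb17, the highest beta isoform, differed by −0.09 (SE 0.122), and Pcdha12, the highest alternate alpha isoform, by 0.26 (SE 0.190; 0.07 without group-housed replicate 1).

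Group-housed replicate 1 held less of most alpha and gamma isoforms than any other library. It was the lowest library for 20 of 22 gamma members, 11 of 13 tested alpha members and 9 of 21 tested beta members. Together this was 40 of 56, or 71.4%, where the same library was the lowest for 26.4% of all genes tested. Its median deviation from an isoform's mean over the 6 libraries was −0.53 in the alpha, −0.37 in the gamma and −0.14 in the beta cluster on the log2 scale, and 0.01 over all genes tested. The whole family summed to 624, 603 and 609 CPM in single-housed and 464, 653 and 588 CPM in group-housed replicates 1, 2 and 3. Alpha isoforms summed to 79.1, 78.3 and 83.0 CPM under single housing against 52.8, 92.5 and 75.6 CPM under group housing. For gamma isoforms the sums were 413, 387 and 394 CPM under single housing against 292, 418 and 379 CPM under group housing. Beta isoforms summed to 132, 137 and 132 CPM under single housing against 119, 143 and 133 CPM under group housing. The group-housed libraries thus spanned both the highest and the lowest sums, and the single-housed libraries lay between them in all 3 clusters.

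**Figure D3:**
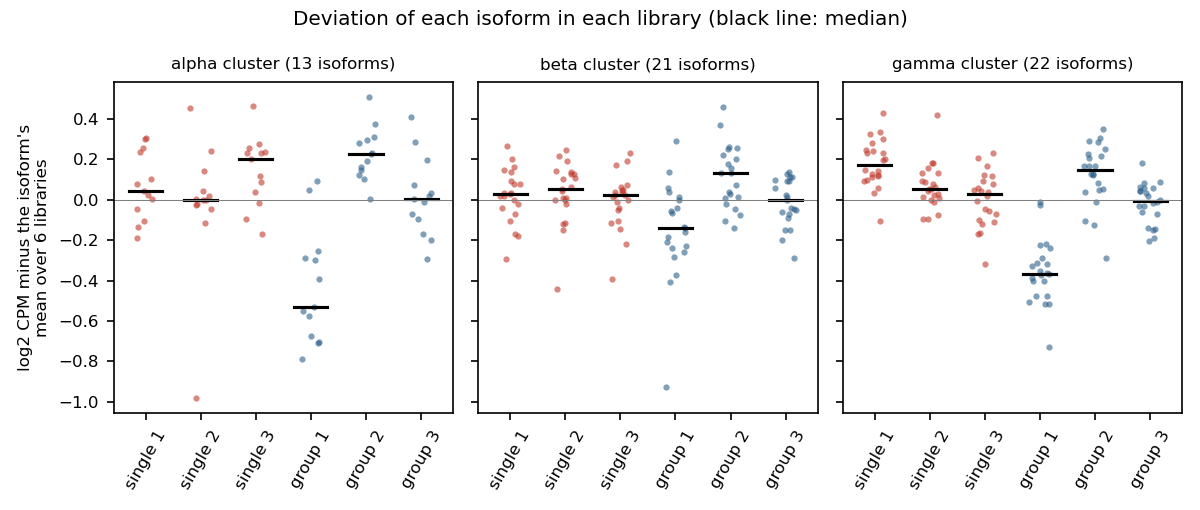
Log2 CPM of each tested isoform minus its mean over the 6 libraries, by cluster and library, with single-housed libraries at the left and the median as a black line. In group-housed replicate 1 the median is −0.53 in the alpha, −0.14 in the beta and −0.37 in the gamma cluster.

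Several other measures set the same library apart. It had the highest summed oligodendrocyte markers (5461 CPM, against 1994 to 4268 CPM in the other 5 libraries) and the highest summed microglial markers (432 against 350 to 376 CPM). Its oligodendrocyte precursor markers (5 of 5) were also the highest, at 361 CPM against 241 to 303 CPM. Its meningeal fibroblast markers (7 of 7) were the lowest, at 79.3 CPM against 113 to 126 CPM in the other libraries. Its summed excitatory markers were the lowest, at 5713 CPM against 5945 to 6753 CPM. In single-housed replicate 1, which had the highest striatal markers, the median deviation was 0.17 in the gamma cluster and 0.04 in the alpha cluster. Genes flanking the clusters on chromosome 18 (17 of 17 in the table) had their highest sum in group-housed replicate 1. It was 803 CPM there, against 726 to 796 CPM in the other libraries. The part of tissue composition, depth or chromosomal position in the protocadherin levels was not tested.

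**Figure D4:**
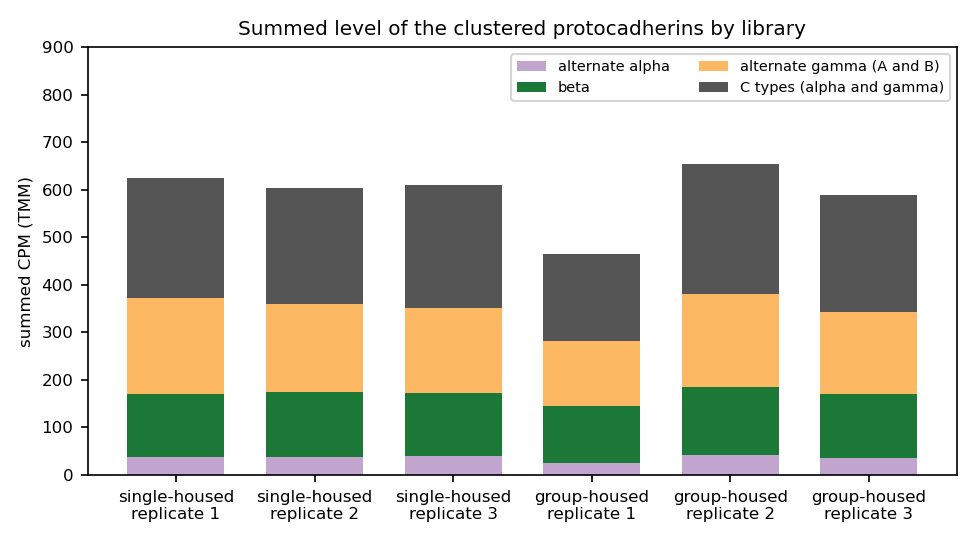
Summed CPM of alternate alpha, beta, alternate gamma and C-type isoforms stacked for each library, with the 3 single-housed libraries at the left. The stacks reach 603 to 624 CPM in single-housed libraries and 464, 653 and 588 CPM in group-housed replicates 1, 2 and 3.

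Pcdhgc3 had the lowest fitted spread of the 56 tested members. Its biological coefficient of variation in the fit, a spread within the housing groups, was 7.37%. The medians were 17.1% in the alpha, 12.3% in the beta and 14.2% in the gamma cluster and 10.7% over all genes tested. The ratio of Pcdhgc5 to Pcdhgc3 differed between libraries. Pcdhgc5 had 2.66, 2.49 and 2.72 times the CPM of Pcdhgc3 in single-housed and 1.85, 3.38 and 2.74 times in group-housed replicates 1, 2 and 3. Pcdhgc5 kept closer to Pcdhac2, with a ratio of 3.43 to 3.88 in all 6 libraries.

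Genes that act with the clustered protocadherins did not pass the housing test either, and 0 genes of the 5 lists below had an unadjusted edgeR p under 0.05. Of 12 genes of CTCF, cohesin and its loaders and releasers, 0 were called higher and 0 lower, 9 had a log2 difference above 0 and the median was 0.02. Smc3, a cohesin subunit, differed by 0.07 (SE 0.0680) and Hdac8, the cohesin deacetylase, by −0.07 (SE 0.105). Of 13 genes of DNA methylation and silencing, 0 were called in either direction, 11 were above 0 and the median was 0.04, with the histone methyltransferase gene Ehmt1 at 0.10 (SE 0.0799) and Uhrf1, a cofactor of maintenance methylation, at 0.61 (SE 0.490). Of 17 signalling partners, among them the kinases that bind the constant tail and the WAVE complex, 0 were called and the median was 0.0010. Ptk2b, which encodes the kinase Pyk2 that the constant tails inhibit, averaged 588 ± 28.1 CPM under single housing and 549 ± 67.2 CPM under group housing (0.10, SE 0.0987), and Ret, a receptor kinase, differed by 0.14 (SE 0.179). Of 10 nonclustered delta protocadherins 0 were called and the median was 0.04, with Pcdh17 at 0.16 (SE 0.109) and Pcdh20 at 0.11 (SE 0.117). Of 16 tested flanking genes 0 were called and the median was −0.04, with Cd14 at −0.32 (SE 0.198) and Dnd1 at −0.36 (SE 0.261).

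The delta protocadherins, which lie outside the clusters, were also lowest in group-housed replicate 1 as a sum. They reached 825, 811 and 873 CPM in single-housed and 693, 930 and 837 CPM in group-housed replicates 1, 2 and 3. The low sum in group-housed replicate 1 was not limited to protocadherins. The signalling partners summed to 4630, 4653 and 4808 CPM under single housing, against 4067, 5082 and 4825 CPM under group housing. The genes of CTCF and cohesin summed to 773, 765 and 767 CPM under single housing, against 703, 807 and 755 CPM under group housing. The silencing genes summed to 860, 826 and 821 CPM under single housing, against 777, 852 and 810 CPM under group housing. These 3 lists, the delta protocadherins, the excitatory markers and all 3 clusters had their lowest sum in that library. The group-housed libraries stood in the same order of sums in each. A sum weighs the most abundant genes most. By mean log2 CPM the silencing genes were at 4.59 in that library, above 4.56 and 4.49 in group-housed replicates 2 and 3. The CTCF and cohesin genes, signalling partners, delta protocadherins and excitatory markers were lowest there by mean log2 CPM too.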

How the data were processed

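Libraries were made with a stranded TruSeq mRNA kit, per the labels' protocols. The submitters' processing notes name FastQC, STAR, featureCounts and the build mm9. Their versions, the annotation and the counting settings: not given in the sources used here. Values as deposited are raw read counts per gene symbol, per the file headers, with exon coordinates and an exon length that equals the merged exons. Own exon bases of a row were counted from those coordinates. Housing was tested with edgeR 4.0.16 in R 4.3.3 (quasi-likelihood F-test) on the whole table with TMM scaling, a low-count filter (minimum 10, total 15) that kept 15258 genes, and Benjamini-Hochberg adjustment at 0.05; standard errors come from the F statistic. The code was tested on simulated data. Levels, shares and sums carry no test. Alternatives were DESeq2 (1.42.0), limma-voom (3.58.1), other scaling and filters, a striatal marker covariate, a replicate block and leaving out each library. Named members were all C types, the highest, median and lowest of each subfamily, the 2 smallest p per cluster and those whose groups did not overlap. Members and lists were chosen with earlier results of these data known.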

Additional observations from a re-analysis of the deposited data

How the results depend on the processing

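The count of members called between the housing conditions was 0 under every alternative run (DESeq2, DESeq2 size factors, limma-voom, no filter, mean CPM above 1, striatal covariate, replicate block and each library left out). Leaving out each library in turn gave medians of −0.06 to 0.26 for the alpha, −0.04 to 0.08 for the beta and 0.02 to 0.25 for the gamma cluster, the lowest in each case without group-housed replicate 1, and shares of the family's counts of 12.7% to 13.3%, 22.0% to 22.9% and 64.1% to 64.7%. Dividing by the deposited exon length, which includes constant exons whose reads are missing, lowered the median level to 0.588 (from 1.29) CPM per kb in the alpha cluster, 2.14 (from 3.96) in the gamma cluster and 6.80 (from 14.4) for the C types. Counting each named member once per alternative run, 8 fitted differences changed sign, none of them past the threshold. Over the libraries left out in turn, the difference ran from −0.14 without group-housed replicate 1 to 0.31 without group-housed replicate 2 for Pcdhac2, and likewise from −0.030 to 0.18 for Pcdhgc4, −0.091 to 0.27 for Pcdhgc5, −0.13 to 0.32 for Pcdha10 and −0.084 to 0.26 for Pcdhga5. Pcdha8 ran from −0.47 without single-housed replicate 1 to 0.15 without single-housed replicate 2, and was also above 0, at 0.035, without group-housed replicate 2. Pcdhb2 ran from −0.28 without single-housed replicate 3 to 0.073 without single-housed replicate 2. The cause was not tested. The labels state no pairing by replicate number. Correlations of deviations from the group means were 0.27, −0.32 and 0.17 for numbers 1, 2 and 3. With 3 libraries per group these cannot decide whether samples were paired. With the number as a replicate block 0 members were called, and the medians were 0.08, −0.0034 and 0.15 in the alpha, beta and gamma clusters. The 6 to 21 counts of Pcdha8 limit its precision most.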
